A study of Mus musculus with 14 samples.

Results

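Collagens are the triple-helical proteins of the extracellular matrix, and each of their chains is encoded by its own gene. Fibrillar chains (types I, II, III, V, XI, XXIV and XXVII) assemble into the fibers of connective tissue. Type IV chains form the network of basement membranes, the sheets on which epithelial cells and blood vessels rest. The remaining chains coat fibrils, build beaded filaments, anchor epithelium to stroma or cross the plasma membrane. In the mammary gland, myoepithelial cells sit on the basement membrane that surrounds the ducts, while fibroblasts between the ducts are a well-known source of types I and III.

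The collagen chains were taken as every protein-coding gene of the table whose symbol consists of Col, a number, the letter a and a number. This rule gave 42 of 16124 genes, of which 11 were fibrillar, 6 were type IV and 25 belonged to other classes. The other classes held 6 type VI chains, 8 fibril-associated chains (FACITs), 4 transmembrane chains, 2 multiplexins, 2 short-chain network formers, the anchoring-fibril chain Col7a1, and the chains Col26a1 and Col28a1. Col10a1, Col21a1 and Col22a1 were not analysed here.

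RNA-seq was performed on mammary epithelial cells of 7 wild-type (WT) and 7 Usp22 OE/OE female mice, 3.5 months of age, with 1 library per mouse. Usp22 encodes a deubiquitinase of the SAGA coactivator complex. OE/OE mice were homozygous for a tagged Usp22 cDNA inserted at ROSA26 under the CAGGS promoter, from which a loxP-flanked stop cassette had been removed by Zp3-Cre, so that the transgene was expressed throughout the body, stroma included. Each OE/OE mouse was matched with a WT littermate, and the pairs carried the numbers 1, 3, 4, 5, 6, 7 and 8. The cells came from glands digested with collagenase, from which epithelial organoids were spun down away from the stroma in short pulses and then dissociated. The comparison asks what ubiquitous Usp22 overexpression changes in the transcripts of these cells.

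The values are normalized counts, that is, fragments per gene divided by the size factor of the library. Depth was between 20125106 and 41835978 fragments per library, and Usp22 was at 3500 to 5380 normalized counts in WT and at 74948 to 144288 in OE/OE, so each library matched its genotype. The epithelial label was met by the luminal list (10 genes, summed level 410491 to 711480) and the myoepithelial list (10 genes, 121894 to 225687). Markers of other cells were detected too: the 14 fibroblast markers summed to between 104601 and 193350 normalized counts in WT and between 63110 and 189015 in OE/OE. The 15 endothelial markers summed to between 78034 and 112849 in WT and between 25285 and 151336 in OE/OE. None of these markers was at 0 in any library.

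The collagen genes together took 0.353% to 0.994% of the normalized total in WT mice (median 0.769%) and 0.509% to 0.852% in OE/OE mice (median 0.556%). The OE/OE range lay inside the WT range. All 42 genes met the filter of the authors, 10 fragments in at least 7 libraries, and 1 value was at 0 (Col19a1 in the WT mouse of pair 1).

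The 6 type IV genes lie as 3 head-to-head couples, each couple read outward from a shared start region, and the positions of the couples are given first because their chains are set side by side throughout. On the GENCODE M21 annotation of GRCm38 (mm10), Col4a1 (chr8:11198423-11312826, minus strand) and Col4a2 (chr8:11312805-11449287, plus strand) overlap by 22 bases of their first exons. Col4a4 (chr1:82448423-82586849, minus) and Col4a3 (chr1:82586921-82722059, plus) start 71 bases apart. Col4a6 (chrX:141165403-141474076, minus) and Col4a5 (chrX:141475385-141689234, plus) leave 1308 bases between them. The sequences below, on the plus strand from RefSeq promoter windows of GRCm38.p6, are the exon overlap of the first couple, all the bases between the second, and the 250 bases next to Col4a6 of the third.
Col4a1/Col4a2, chr8:11312805-11312826: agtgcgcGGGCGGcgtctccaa
Col4a4/Col4a3, chr1:82586850-82586920: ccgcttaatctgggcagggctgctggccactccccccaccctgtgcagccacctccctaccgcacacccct
Col4a6/Col4a5, chrX:141474077-141474326: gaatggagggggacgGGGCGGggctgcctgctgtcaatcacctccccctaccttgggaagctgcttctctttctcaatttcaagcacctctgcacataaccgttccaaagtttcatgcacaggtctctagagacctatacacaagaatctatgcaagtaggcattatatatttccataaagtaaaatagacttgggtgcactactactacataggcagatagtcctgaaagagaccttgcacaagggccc

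Capitals mark the letters of a GC box (GGGCGG, searched on both strands), which the stretches of Col4a1/Col4a2 and Col4a6/Col4a5 hold once each. The CCAAT box (CCAAT) and the TATA box (TATAAA) were searched in the same way and were not in these letters. CCAAT was nonetheless in the 250-base windows before the RefSeq starts of Col4a1, Col4a2 and Col4a5, which these letters do not cover in full. Among the 250-base windows before the RefSeq starts of 34 collagen genes (37 windows), 22 held the GC box (59.5%, against 32.7% of all 32851 windows), 13 held CCAAT (35.1% against 33.8%) and 4 held TATAAA (10.8% against 12.4%). These matches are a description of the letters only.

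Levels of different chains were compared per kilobase of exon, with all annotated exons of a gene merged. Across the 14 libraries, the mean level per kb was at least 1000 for 10 genes, between 100 and 1000 for 13, between 10 and 100 for 13 and under 10 for 6. In WT mice the highest levels per kb were those of Col1a1, the main chain of type I collagen, at 4162 ± 1589 (SD, n = 7) and of Col4a1, a chain of every basement membrane, at 3896 ± 1157 (SD, n = 7). These 2 levels differed by less than the spread between mice. They were followed by the partner of Col4a1, Col4a2, at 2848 ± 826, by the type III chain Col3a1 at 2749 ± 1129, by the second type I chain, Col1a2, at 2645 ± 920 and by the type VI chain Col6a1 at 2138 ± 576 (all SD, n = 7).

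The order within these 6 depended on the length used, although the same 6 genes were highest in WT on both scales. Col1a2 has merged exons of 12426 bases and a longest coding transcript of 5348 bases. Per kb of the longest coding transcript, an alternative added after the data were seen, Col1a2 had the highest level in WT (6146 ± 2137, SD, n = 7), ahead of Col3a1 (4849 ± 1991) and Col1a1 (4607 ± 1759). These means differed by less than the spread between mice, but the chains were measured in the same mice. Within WT mice the ratio on this scale was 0.74 ± 0.08 for Col1a1 to Col1a2 and 1.04 ± 0.20 for Col3a1 to Col1a1 (SD, n = 7).

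**Figure D1:**
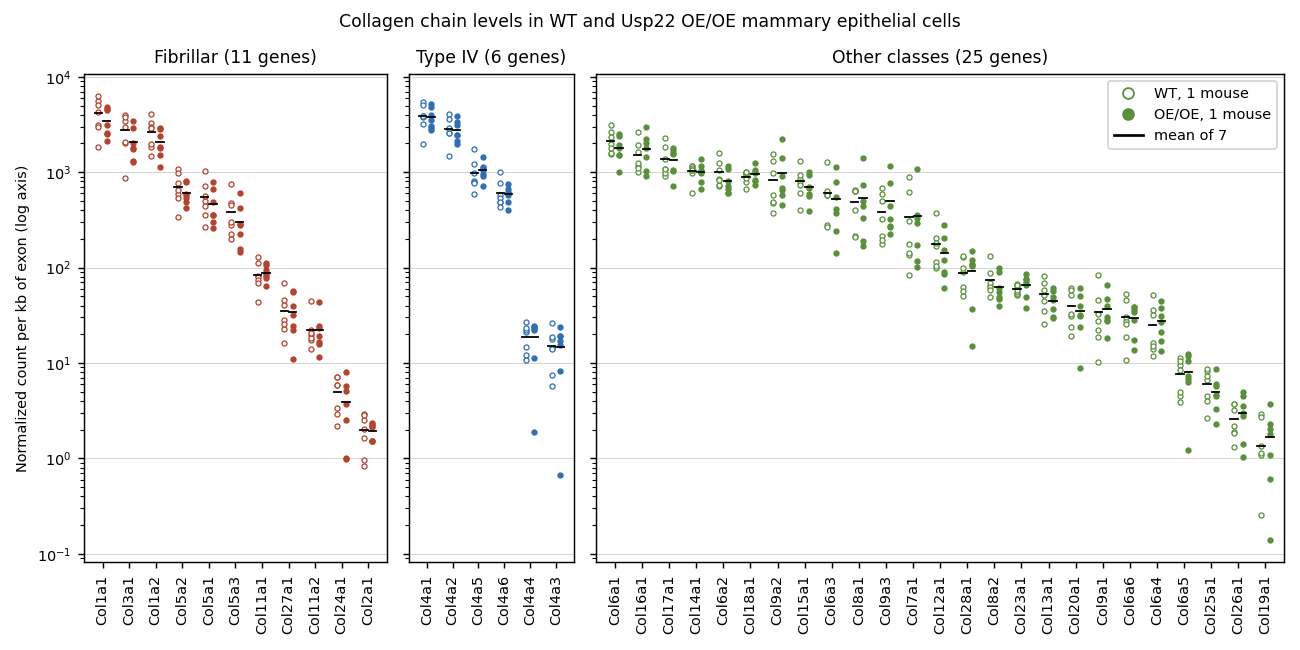
Level of each collagen gene as normalized counts per kb of merged exon, on a log axis, with 1 point per mouse (open, WT; filled, OE/OE) and the mean of 7 mice as a bar. The WT means run from 4162 for Col1a1 to 1.36 for Col19a1, whose 1 value of 0 is not drawn, and the WT and OE/OE points overlap for every gene.

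Of the summed collagen level per kb of exon, the 11 fibrillar chains took 35.0% ± 5.58 in WT mice against 31.1% ± 6.71 in their OE/OE littermates (SD, n = 7). The 6 type IV chains took 26.5% ± 3.25 and 28.1% ± 3.35, and the 25 other chains took 38.5% ± 4.14 and 40.8% ± 5.97. None of the 3 shares passed an exact sign-flip test between genotypes over the 7 pairs (two-sided p = 0.266, 0.359 and 0.234). The OE/OE minus WT differences were -3.92 ± 8.43, 1.59 ± 4.36 and 2.33 ± 4.53 points (SD of the 7 pairs), lower in 5, 2 and 1 pairs. The shares are parts of the same total, so these tests are not independent. With transcript length the fibrillar share in WT was 42.0% ± 5.83 and the type IV share 22.1% ± 3.05.

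Among the fibrillar chains, the type V chains, which co-assemble with type I, had WT levels per kb of exon of 705 ± 256 (Col5a2), 554 ± 255 (Col5a1) and 384 ± 191 (Col5a3). The cartilage chains were far lower, with Col11a1 at 84.0 ± 28.0, Col11a2 at 22.4 ± 10.3 and Col2a1 at 1.97 ± 0.86. Among the type IV chains, Col4a5 and Col4a6 stood at 986 ± 388 and 612 ± 202 per kb of exon. Col4a3 and Col4a4, the chains known from the kidney glomerulus, stood at 14.9 ± 6.95 and 18.8 ± 6.20 per kb of exon (all SD, n = 7).

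Outside these classes the levels per kb of exon in WT were led, after Col6a1, by the FACIT Col16a1 (1524 ± 579) and by Col17a1 (1367 ± 515), the collagen of hemidesmosomes, with which basal epithelial cells hold on to the basement membrane. Col14a1, a FACIT on fibril surfaces, was at 1019 ± 194, and the type VI chain Col6a2 at 1004 ± 319. The multiplexins of basement membrane zones were at 892 ± 129 (Col18a1, the precursor of endostatin) and 800 ± 282 (Col15a1). Col18a1 also varied least of all members, by 1.86-fold from the lowest to the highest of the 14 libraries.

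Collagen genes differed little between the genotypes relative to the spread between pairs. At the unadjusted threshold of 0.05 used by the study, 1 of the 42 genes passed (limma with the pair as a block), against 3.81% of all 16124 genes (1.85% lower and 1.95% higher). This gene was Col12a1, which was lower in OE/OE. After Benjamini-Hochberg adjustment over all genes no collagen gene was under 0.05 (adjusted p = 1.00 for each), against 0.0124% of all genes. With edgeR and DESeq2 on the recovered fragments, again 1 of 42 passed the unadjusted threshold, and it was Col12a1 in both. The ranges of the WT and OE/OE mice overlapped for all 42 genes, but the share of all genes with overlapping ranges was not counted.

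Of the 42 genes, 28 had a fitted change below 0 (66.7%, against 50.4% of all genes) and 14 above 0. The median fitted log2 change was -0.22 over the fibrillar chains (SD of the 7 within-pair medians 0.54), -0.03 over the type IV chains (SD 0.37) and -0.02 over the others (SD 0.30), against -0.00 over all genes. Each class median was thus smaller than its spread between pairs. One gene, Col12a1, was lower in 6 or 7 of the 7 pairs, against 6.79% of all genes, and none was higher in 6 or 7 pairs, against 7.32%. The limma 95% intervals reached a median of 0.46 to either side on the log2 scale and included 0 for 41 of 42 genes.

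**Figure D2:**
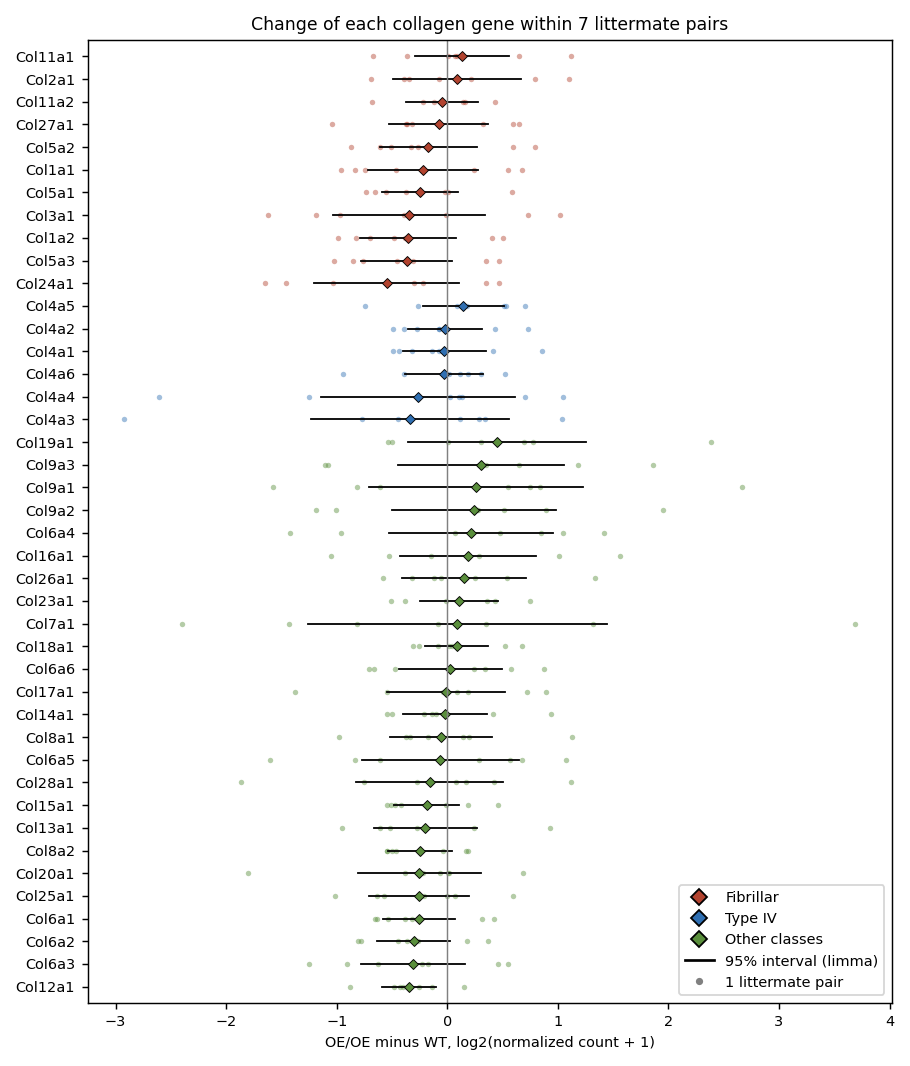
Change of each of the 42 collagen genes on the log2(normalized count + 1) scale, OE/OE minus WT. Diamonds are the fitted changes of limma with their 95% intervals as lines, and points are the 7 littermate pairs. The interval of Col12a1, -0.59 to -0.10, lies below 0, whereas those of the other 41 genes include 0.

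Col12a1 (ENSMUSG00000032332.17, chr9:79598991-79718831, minus strand) encodes a FACIT that binds to type I fibrils. In WT mice it ranged from 1509 to 5719 normalized counts (median 2541), and in OE/OE mice from 938 to 4259 (median 1820). The WT and OE/OE ranges overlapped widely, with the litter of pair 5 highest in both genotypes. Within pairs, however, the OE/OE littermate was lower in 6 of 7, by log2 changes of -0.88, -0.14, -0.26, -0.43, -0.48 and -0.40 in pairs 1 and 3 to 7, and higher by 0.15 in pair 8. The fitted log2 change was -0.35 with an SE of 0.11 (0.787-fold; limma p = 0.0111, adjusted p = 1.00; exact sign-flip p = 0.0469, two-sided, where the smallest possible p is 0.0156). Without the replicate block it no longer passed (change -0.35, SE 0.35).

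Type I collagen, the main protein of stromal fibers, did not pass the threshold for either chain. Col1a1 (chr11:94936224-94953042, plus strand) ranged from 11942 to 41084 normalized counts in WT (median 27928) and from 14105 to 31379 in OE/OE (median 20526). Col1a2 (chr6:4504814-4541544, plus strand) ranged from 18353 to 50459 in WT (median 36062) and from 14059 to 36081 in OE/OE (median 23053). Both overlapped between the genotypes, and the OE/OE littermate was lower in 4 of 7 pairs for Col1a1 and in 5 of 7 for Col1a2. The fitted log2 changes were -0.22 (SE 0.22, exact sign-flip p = 0.422) and -0.35 (SE 0.19, exact sign-flip p = 0.188). The 95% interval of the Col1a2 change ran from -0.78 to 0.08. In pairs 1 and 8, Col1a2 was higher in the OE/OE littermate (log2 0.40 and 0.50). The WT libraries of these 2 pairs were the shallowest, and whether depth had a part in this was not tested. Without either pair Col1a2 passed the limma threshold as lower (log2 -0.48 without pair 1, SE 0.19, and -0.50 without pair 8, SE 0.18).

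Among the chains that share fibrils with type I, Col3a1 (chr1:45311538-45349706, plus strand) ranged from 8453 to 38611 normalized counts in WT (median 29492) and from 12544 to 33981 in OE/OE (median 17408). Its neighbour Col5a2, which lies 24614 bases away and is read toward it, ranged from 3232 to 10253 in WT (median 6175) and from 4045 to 7798 in OE/OE (median 5591). Both had their lowest WT value in the mouse of pair 4. Col5a1, the other main type V chain, ranged from 2236 to 8725 in WT (median 4279) and from 2208 to 6744 in OE/OE (median 3056). The OE/OE littermate was lower in 5 of 7 pairs for each of the 3 genes, and the fitted log2 changes were -0.35 (SE 0.31) for Col3a1, -0.17 (SE 0.20) for Col5a2 and -0.25 (SE 0.15) for Col5a1. None passed the limma threshold (exact sign-flip p = 0.391, 0.453 and 0.219). Among the remaining fibrillar chains the fitted changes farthest from 0 were -0.55 for Col24a1 (SE 0.29) and -0.37 for Col5a3 (SE 0.18), each with an exact sign-flip p of 0.172.

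The major type IV chains were nearly equal in the 2 genotypes on average. Col4a1 ranged from 14644 to 40673 normalized counts in WT (median 28832) and from 20733 to 38461 in OE/OE (median 26605). Col4a2 ranged from 9760 to 27012 in WT (median 18576) and from 13220 to 25597 in OE/OE (median 16172). The fitted log2 changes were -0.03 (SE 0.17, 95% interval -0.40 to 0.35) and -0.02 (SE 0.15, interval -0.36 to 0.32). The sign of both turned positive without pair 1, 5 or 6.

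Col4a1 and Col4a2 nevertheless moved in step from pair to pair. In pairs 1, 3, 4, 5, 6, 7 and 8 the log2 changes of Col4a1 were -0.49, -0.13, 0.86, -0.44, -0.32, -0.07 and 0.42. Those of Col4a2 were -0.49, -0.07, 0.73, -0.39, -0.28, -0.07 and 0.43. The 2 changes differed by 0.04 on average (mean absolute difference over the 7 pairs, largest 0.13), which was the smallest such value among the 861 combinations of 2 collagen genes, for which the median was 0.68. Col4a5 and Col4a6 differed by 0.18 on average (rank 13 of 861) and Col4a3 and Col4a4 by 0.30 (rank 73). Across couples the value was 1.08 for Col4a1 against Col4a3 and 0.29 (rank 59) for Col4a1 against Col4a5, the latter no larger than that within the Col4a3 and Col4a4 couple. This value is not scaled to how far a gene moved. The SD of the 7 changes was 0.50 for Col4a1, 0.51 for Col4a5, 1.28 for Col4a3 and 1.26 for Col4a4. The sign was the same in 4 of 7 pairs for Col4a1 and Col4a5 (median of all combinations 4) and in 6 of 7 for Col4a3 and Col4a4. The points of such a comparison come from the same 14 libraries and share their depth and cell makeup, and fragments in the 22 shared bases could not be assigned to one gene, since the strand setting of the counting is not given in the sources used here.

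Chains that can join in a trimer were close to differing degrees elsewhere. Col9a2 and Col9a3 differed by 0.12 on average over the 7 pairs (rank 3 of 861), Col1a1 and Col1a2 by 0.15 (rank 8) and Col6a1 and Col6a2 by 0.16 (rank 11). The values were larger for Col6a1 and Col6a3 (0.22, rank 20), Col5a1 and Col5a2 (0.25, rank 36) and Col6a2 and Col6a3 (0.30, rank 72). Likeness was not limited to partners, since Col4a1 and the FACIT Col14a1 differed by only 0.10 (rank 2) and Col5a1 and the multiplexin Col15a1 by 0.13 (rank 4). These genes were picked out after their values were seen.

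The ratio of 2 chains within a library does not depend on its size factor. Per kb of exon, Col4a1 to Col4a2 was 1.37 ± 0.07 in WT mice against 1.36 ± 0.09 in their OE/OE littermates (SD, n = 7), with a log2 difference of -0.01 ± 0.07 (SD of the 7 pairs). The ratio of Col1a1 to Col1a2 was 1.55 ± 0.18 and 1.70 ± 0.17, that of Col3a1 to Col1a1 was 0.652 ± 0.12 and 0.605 ± 0.15, and that of Col6a1 to Col6a2 was 2.15 ± 0.11 and 2.24 ± 0.29. With all 7 pairs no ratio passed an exact sign-flip test between genotypes (two-sided p = 0.891, 0.156, 0.5 and 0.531, and 0.891, 0.625, 0.708 and 0.708 after adjustment over the 4 ratios). The ratio of Col4a1 to Col4a2 was lower in OE/OE in 6 of 7 pairs, and without pair 4 its log2 difference was -0.03 ± 0.03 (SD), with all 6 remaining pairs lower (exact sign-flip p = 0.0312, the smallest that 6 pairs allow, and 0.125 after adjustment over the 4 ratios). The absolute ratios rest on the lengths: per kb of the longest coding transcript the WT ratio of Col1a1 to Col1a2 was 0.74 ± 0.08.

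Type VI collagen forms beaded filaments around cells, and its 3 main chains all had fitted changes below 0. Col6a1 ranged from 6798 to 13610 normalized counts in WT (median 8716) and from 4442 to 10929 in OE/OE (median 7871). Col6a2 ranged from 6018 to 13265 in WT (median 7111) and from 5086 to 9725 in OE/OE (median 5903). Col6a3 ranged from 3185 to 15364 in WT (median 6906) and from 1693 to 13577 in OE/OE (median 4908). Each was lower in OE/OE in pairs 3, 4, 5, 6 and 7 and higher in pairs 1 and 8. The fitted log2 changes were -0.26 (SE 0.15), -0.30 (SE 0.15) and -0.31 (SE 0.21), and none passed the limma threshold (exact sign-flip p = 0.188, 0.141 and 0.266). Without pair 1 all 3 passed it as lower (log2 -0.35, -0.38 and -0.46), and without pair 8 Col6a1 and Col6a2 did (-0.37 and -0.42).

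The chains of basement membrane zones and hemidesmosomes had fitted changes closer to 0. Col15a1 ranged from 2539 to 8266 normalized counts in WT (median 5059) and from 2517 to 6347 in OE/OE (median 4340), with a fitted log2 change of -0.19 (SE 0.13, exact sign-flip p = 0.266). Col18a1 ranged from 4667 to 7115 in WT (median 6730) and from 5216 to 8668 in OE/OE (median 6960), with a change of 0.09 (SE 0.13, exact p = 0.562). Col17a1 ranged from 5480 to 13737 in WT (median 6535) and from 4276 to 10683 in OE/OE (median 9389), with a change of -0.01 (SE 0.24, exact p = 0.984). Its OE/OE median was the higher one although the fitted change was near 0, since pair 1 (log2 -1.37) stood against higher OE/OE values in pairs 3, 4, 7 and 8. Col7a1, the chain of the anchoring fibrils beneath hemidesmosomes, had the widest interval of all members, from -1.26 to 1.44 around a change of 0.09.

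**Figure D3:**
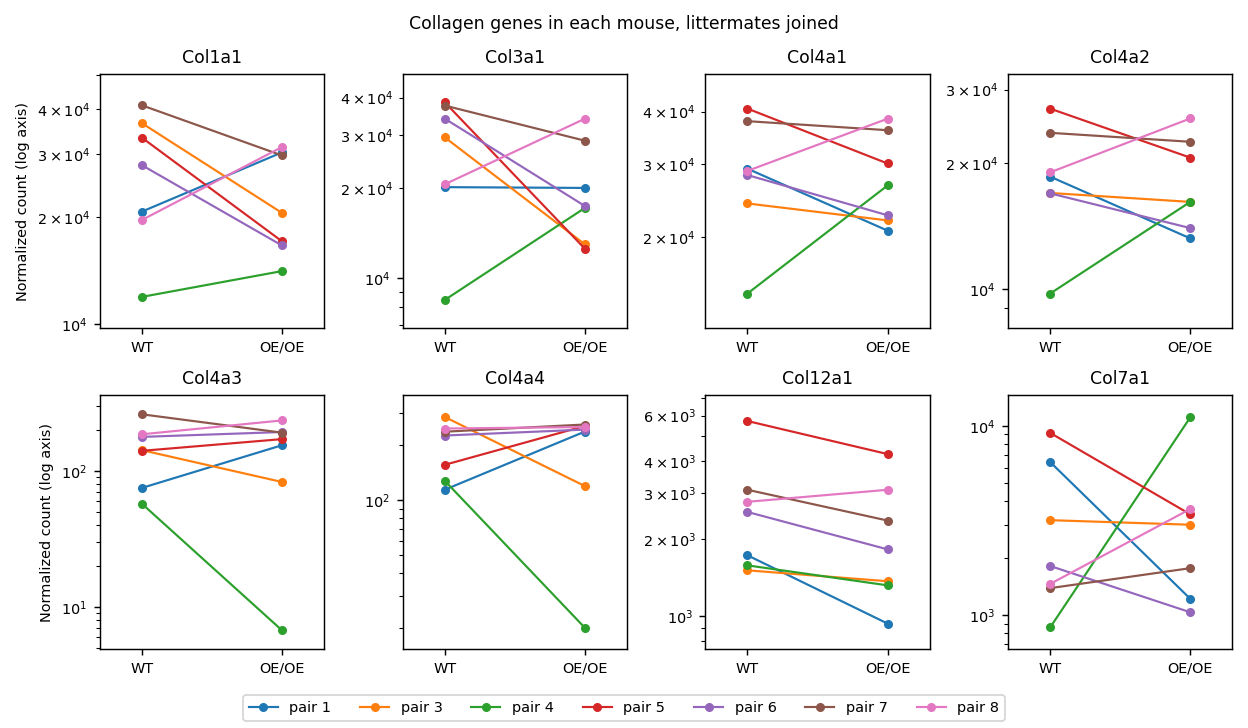
Normalized counts of 8 collagen genes in each mouse, on log axes with a different range in each panel, with littermates joined by a line and each pair in 1 color. The lines of Col12a1 slope down in 6 of 7 pairs, those of Col4a1 and Col4a2 run alike, and those of pair 4 (green) stand against most other pairs for Col3a1, Col4a1, Col4a2, Col4a3, Col4a4 and Col7a1.

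Changes within single pairs were large, and pairs 1 and 4 stood apart. In pair 4, 16 of the 42 genes differed by at least 1 on the log2 scale between the littermates (38.1%, against 19.7% of all genes), 9 higher and 7 lower in OE/OE. In pair 1 this held for 13 genes (31.0%, against 10.1% of all genes), 5 higher and 8 lower. It held for 5 genes each in pairs 3 and 5 (11.9%, against 5.22% and 6.67% of all genes), for 4 in pair 8 (9.52% against 4.24%), for 2 in pair 6 (4.76% against 3.58%) and for none in pair 7 (3.02% of all genes). Direction was most uniform in pair 8, where 38 of 42 genes were higher in OE/OE, while between 26 and 30 of 42 were lower in pairs 3, 5, 6 and 7. The median log2 change over all genes was 0.02 in pair 8 and 0.01, -0.02, -0.01 and 0.01 in pairs 3, 5, 6 and 7.

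Pair 4 split the collagen genes within classes. Col7a1 was higher in its OE/OE mouse by 3.69 on the log2 scale (859 normalized counts in the WT mouse, 11089 in its littermate). The type IX chains, partners of cartilage fibrils, were higher by 2.67 (Col9a1), 1.95 (Col9a2) and 1.86 (Col9a3), Col16a1 by 1.57, Col3a1 by 1.02 and Col4a1 by 0.86. By contrast Col4a3 stood at a log2 change of -2.92 (57.4 normalized counts in the WT mouse, 6.71 in its littermate) and Col4a4 at -2.61 (128 and 20.1). Col28a1 was at -1.87, Col20a1 at -1.80 and Col6a5 at -1.61. Pair 1 showed the opposite sign for each of these genes, with Col3a1 at -0.01. There Col7a1 changed by -2.40, Col9a1 by -1.58, Col16a1 by -1.05, Col4a1 by -0.49, Col4a3 by 1.03 and Col4a4 by 1.05.

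Marker lists of other cell types moved in the same pairs. The mean of the fibroblast list changed by -1.49 (log2) in pair 4 and by 0.70 in pair 1, that of the endothelial list by -1.76 and 0.92, that of the pericyte list by -1.55 and 0.84 and that of the Schwann list by -1.80 and 0.91. The myoepithelial list changed by 0.11 and -0.63 and the luminal list by -0.02 and 0.27. In these bulk samples, fewer cells of a type and less RNA per cell cannot be told apart, and the part of these lists in the collagen values of single pairs was not tested. Over all 7 pairs the fibroblast list was lower in 6 (mean change -0.43, with 14 of 14 genes fitted lower and 4 past the unadjusted threshold). The adipocyte list was lower in 6 pairs as well (-0.70, 9 of 12 genes fitted lower and 6 past the threshold). Of all genes, 50.4% were fitted lower and 1.85% passed the threshold as lower. Genes fitted lower were also 15 of 15 endothelial, 6 of 6 Schwann, 8 of 8 macrophage, 7 of 8 pericyte and 8 of 10 myoepithelial markers. In the luminal list this held for 1 of 10 genes. None of the genes of these lists passed the threshold. The macrophage list was lower in 5 pairs (-0.18, no gene past the threshold), the lymphocyte list changed by -2.06 in pair 1 and by -0.27 on average, and the skeletal muscle list by 0.05 on average.

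**Figure D4:**
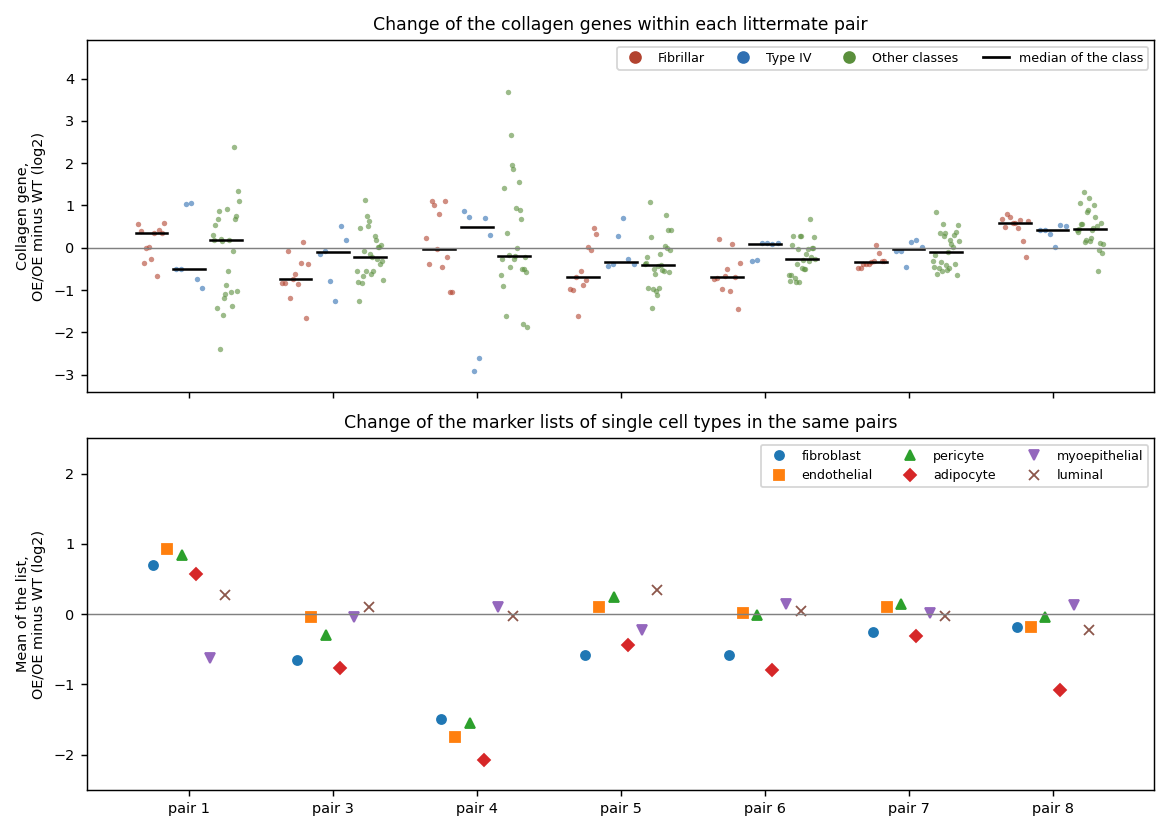
Change within each littermate pair, OE/OE minus WT on the log2 scale. The upper panel shows the 42 collagen genes by class with the class medians as bars, and the lower panel the mean change of 6 marker lists; in pair 4 the fibroblast, endothelial, pericyte and adipocyte lists lie between -1.49 and -2.08 while the collagen genes spread from -2.92 to 3.69.

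With the fibroblast list mean as a covariate, 5 of 42 collagen genes passed the unadjusted threshold, against 7.72% of all genes in that fit. Col12a1 remained lower, and Col19a1, Col23a1, Col26a1 and Col28a1 were higher. The median change of the fibrillar chains was then -0.14 in place of -0.22, whereas that of the type IV chains was -0.16 in place of -0.03 and that of the others -0.10 in place of -0.02. Among single genes, Col1a1 was at -0.07 in place of -0.22 and Col1a2 at -0.13 in place of -0.35. The type VI chains Col6a1, Col6a2 and Col6a3 were at -0.03, -0.16 and 0.03 in place of -0.26, -0.30 and -0.31. By contrast, Col3a1 was at -0.41 in place of -0.35, Col4a1 at -0.23 in place of -0.03 and Col17a1 at -0.39 in place of -0.01.

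The number of collagen genes past the threshold depended on pairs 1 and 8. Without pair 1, 9 of 42 genes passed the unadjusted threshold and all 9 were lower (Col1a2, Col5a3, Col6a1, Col6a2, Col6a3, Col8a2, Col12a1, Col13a1 and Col24a1), against 7.42% of all genes in that fit. Without pair 8, 8 genes passed and all 8 were lower (Col1a2, Col5a1, Col5a3, Col6a1, Col6a2, Col8a2, Col12a1 and Col15a1), against 2.99% of all genes. No collagen gene was under 0.05 after adjustment in either fit. The medians of the fibrillar chains in pairs 1 and 8 were 0.35 and 0.59, whereas in pairs 3, 4, 5, 6 and 7 they were -0.74, -0.02, -0.69, -0.68 and -0.33.

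The second question was the spread between litters. Litter took a median of 62.9% of the sum of squares of a collagen gene (46.2% would follow from the degrees of freedom), against 73.9% over all genes, and genotype took 2.91%, against 1.43% (7.69% from the degrees of freedom). An effect of litter passed an adjusted p of 0.05 (limma F test over all genes) for 12 of 42 collagen genes (28.6%), against 33.3% of all genes. These were 4 of 11 fibrillar chains, 1 of 6 type IV chains and 7 of 25 others. Without pair 7, 3 collagen genes passed, against 20% of all genes in that fit. The SD of the litter means had a median of 0.47 over the collagen genes and 0.36 over all genes (log2), and the SD of the 7 within-pair changes a median of 0.63 and 0.36. Litter and anything else that littermates shared, such as a day of preparation, cannot be told apart.

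**Figure D5:**
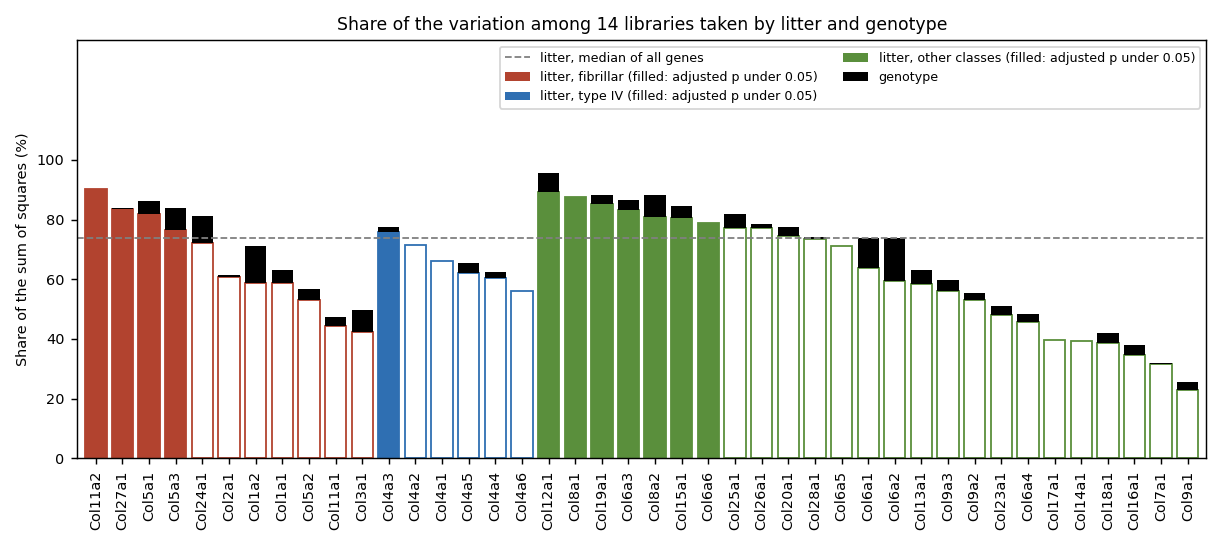
Share of the sum of squares among the 14 libraries that litter (colored bars) and genotype (black) took for each collagen gene. Filled bars mark the 12 genes with an adjusted p under 0.05 for litter, and the dashed line is the median litter share of all genes, 73.9%; the litter share runs from 90.1% for Col11a2 to 22.7% for Col9a1.

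The litter effect had its smallest adjusted p-values for Col12a1 (89.2% of the sum of squares, adjusted p = 0.00343), the short-chain network former Col8a1, known from vessel walls (87.4%, adjusted p = 0.00944) and Col6a3 (83.3%, adjusted p = 0.0119; all limma). Geometric means of the littermates ran from 1273 normalized counts in litter 1 to 4935 in litter 5 for Col12a1, a 3.88-fold range. For Col6a3 they ran from 2322 in litter 4 to 14443 in litter 7, a 6.22-fold range, and for Col8a1 from 1476 in litter 7 to 7412 in litter 3, a 5.02-fold range. Col8a2, the partner of Col8a1, also had its highest mean in litter 3 and its lowest in litter 7 (488 and 215; adjusted p = 0.0245). The fibrillar chains past the threshold were Col5a1 (3.45-fold, adjusted p = 0.0152), Col5a3 (3.88-fold, 0.0230), Col11a2 (3.02-fold, 0.0169) and Col27a1 (3.91-fold, 0.0210).

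Type I and III chains varied between litters by 2.66-fold to 2.73-fold without passing the litter test (limma adjusted p = 0.204 for Col1a1, 0.148 for Col1a2 and 0.433 for Col3a1), since littermates differed as well. The type IV chain past the threshold was Col4a3, with means from 20.2 in litter 4 to 224 in litter 7 (adjusted p = 0.0461). Litter 4 had the lowest mean for 25 of the 42 genes, among them 9 of 11 fibrillar and 5 of 6 type IV chains. The highest mean was in litter 7 for 17 genes, 7 of them fibrillar, and in litter 5 for 11. Litter 7 also had the lowest mean for 8 genes, Col4a6, Col6a4, Col8a1, Col8a2, Col9a1, Col9a2, Col9a3 and Col17a1. How often each litter held the lowest or highest mean over all genes was not counted, so these counts cannot be called particular to collagen genes.

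Collagen chains are modified, folded and secreted with dedicated enzymes and chaperones and are cross-linked outside the cell. Of 33 such genes listed, 32 were in the table, and 2 were higher and 1 lower in OE/OE at the unadjusted threshold, against 1.95% and 1.85% of all genes. None was under 0.05 after adjustment, and the median log2 change was -0.03. Leaving out a pair moved the count of 3 to 9 without pair 1 (against 7.42% of all genes in that fit), 5 without pair 4 (8.47%) and 1 without pair 7 (3.09%). P4ha2, a prolyl 4-hydroxylase subunit, ranged from 411 to 2775 normalized counts in WT (median 726) and from 446 to 4380 in OE/OE (median 1292), and was higher in 6 of 7 pairs (log2 0.59, SE 0.23, limma p = 0.0310, exact sign-flip p = 0.0469). P3h2, a prolyl 3-hydroxylase active on type IV collagen, ranged from 706 to 1018 in WT and from 863 to 1011 in OE/OE and was higher in 6 of 7 pairs (log2 0.23, SE 0.08, limma p = 0.0170, exact sign-flip p = 0.0312).

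Loxl1, a lysyl oxidase that cross-links fibers, ranged from 901 to 1840 in WT (median 1397) and from 674 to 1281 in OE/OE (median 1018). It was lower in 4 of 7 pairs (log2 -0.45, SE 0.20, limma p = 0.0493), and the sign-flip test did not pass (exact p = 0.141). Lox itself had a fitted log2 change of -0.27 (SE 0.30, exact sign-flip p = 0.547), with a log2 change of -2.33 in 1 pair. The collagen chaperone Serpinh1 had a fitted change of 0.13 (SE 0.09), the prolyl 4-hydroxylase subunit P4ha1 one of 0.08 (SE 0.11) and the lysyl hydroxylase Plod2 one of -0.10 (SE 0.13), with exact sign-flip p-values of 0.172, 0.547 and 0.516.

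Of 19 collagen receptors and collagen-binding proteins listed, 18 were in the table, and 1 was lower and none higher at the unadjusted threshold, against 1.85% lower and 1.95% higher of all genes (median log2 change -0.13). Lum, which encodes the fibril-binding proteoglycan lumican and is also on the fibroblast list, ranged from 2835 to 5162 normalized counts in WT (median 4392) and from 1315 to 4305 in OE/OE (median 3063). It was lower in 6 of 7 pairs (log2 -0.53, SE 0.18, limma p = 0.0167, adjusted p = 1.00, exact sign-flip p = 0.0469). The discoidin-domain receptors, kinases that bind collagen directly, did not pass: Ddr1, typical of epithelium, had a fitted change of 0.02 (SE 0.08, exact sign-flip p = 0.703) and Ddr2, typical of stroma, one of -0.24 (SE 0.27, exact p = 0.531).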

How the data were processed

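Total RNA from mammary epithelial cells of 7 littermate pairs was sequenced as paired reads, mapped by the authors to mm10 (TopHat 2.0.10) and counted per GENCODE M21 gene with HTSeq 0.6.0. The deposited values are a signal on a linear scale, counts that the authors divided by DESeq 1.18.0 size factors after dropping genes that did not reach 10 fragments in 7 or more libraries. In each library 100% of values were whole multiples (within 0.01) of a single step, taken as 1 fragment, which gave the depth (20125106 to 41835978 fragments per library); intervals from counting error are not given.

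The main test was limma 3.58.1 (R 4.3.3, trend) on log2(normalized count + 1) over all 16124 genes blocked by pair, a scale that understates changes of low genes; the study used a paired test on the same values. The pairing comes from the design, since equal numbers mark littermates. The threshold was an unadjusted p of 0.05, as in the study, with Benjamini-Hochberg adjustment beside it. Exact sign-flip tests used the 128 sign patterns of the 7 pairs. edgeR 4.0.16 and DESeq2 1.42.0 on the recovered fragments were alternatives, besides pseudocounts of 0.1 and 10, a minimum mean of 50, limma without trend, no block, other scalings, marker covariates and each pair left out. The limma step was tested on simulated data. Genes per kb used merged exons of GENCODE M21.

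The members, classes, marker and pathway lists were chosen with earlier results of these data known. Every collagen gene could be named. Values by mouse were planned for 13 preset genes and any past the unadjusted threshold. Single values of some other genes, such as Col7a1, Col4a3 and Col4a4, were also given where they stood out. From the pathway lists, those past that threshold and 7 preset genes were named. Exons of 11 collagen genes overlap other genes, by at most 6.07% of their exon bases (Col9a3).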

Additional observations from a re-analysis of the deposited data

Results flagged for a closer look

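In 6 of the 84 groups examined (42 genes in WT and in OE/OE, 7 mice each), 1 mouse lay apart from the other 6, with a gap to its nearest neighbour, as a share of the range of the group, above the 95% critical value of Dixon's test on the log2(normalized count + 1) scale. Chance alone would give about 4.2 such groups. Of these, 5 concern litter 4. In its WT mouse, Col3a1 was at 8453 normalized counts (13.05 on the log2 scale; next lowest WT mouse 20108) and Col14a1 at 4235 (12.05; next 6907). In its OE/OE mouse, Col4a3 was at 6.71 (2.95; next lowest OE/OE mouse 82.9), Col4a4 at 20.1 (4.40; next 120) and Col6a5 at 11.5 (3.64; next 59.4). The other case was the WT mouse of litter 5, in which Col11a2 was at 309 (8.28; next highest WT mouse 151); its OE/OE littermate was at 299.9, also the highest of its group.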

How the results depend on the processing

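The count of collagen genes past the unadjusted threshold was 1 at the pseudocounts of 0.1 and 10, with a minimum mean of 50, without trend, with edgeR and DESeq2, with median centring and with the endothelial covariate. It was 0 without the replicate block (Col12a1 at -0.35), 2 with quantile normalization (Col6a2 and Col12a1) and 5 with the fibroblast covariate. With each pair left out in turn it ranged from 1 to 9 (9 without pair 1, 8 without pair 8, 2 without pair 5). The block changed the call of no other collagen gene. The count of collagen genes with a litter effect was 12 with all pairs. With a pair left out it ranged from 3 without pair 7 (20% of all genes in that fit) to 18 without pair 1 (35.8%). The count of modification, secretion and cross-linking genes past the threshold ranged from 1 (without pair 7) to 9 (without pair 1) and was 5 without pair 4. Of all genes, 7.42%, 8.47% and 3.09% passed without pairs 1, 4 and 7. The fitted changes of the genes named next turned sign, and none passed the threshold in a setting where its sign turned. Apart from that of Col6a3 (-0.31 in the main fit), these changes were near 0 in the main fit. Col17a1 was at 0.0086 with median centring, and Col6a3 at 0.031 and Col18a1 at -0.012 with the fibroblast covariate. With a pair left out, Col17a1 ranged from -0.16 to 0.22 (positive without pairs 1 and 5), Col18a1 from -0.013 (without pair 4) to 0.15, Col4a1 from -0.17 to 0.052 and Col4a2 from -0.14 to 0.058 (both positive without pairs 1, 5 and 6), and the log2 difference of the Col4a1 to Col4a2 ratio from -0.029 to 0.0040 (above 0 without pairs 3, 5 and 6; at its lowest without pair 4, exact sign-flip p = 0.0312 and 0.125 after adjustment over the 4 ratios). The cause of these moves was not tested. The median of the fibrillar chains stayed below 0 under all alternatives. That of the type IV chains (-0.027 in the main fit) turned to 0.055 without pair 1 and 0.037 without pair 5. That of the other chains (-0.019) turned to 0.012 without pair 3. All 3 medians moved by less than the spread between pairs, which is wide against medians so near 0 (SD 0.37 for type IV and 0.30 for the others). The 7 pairs and the spread between them limit what could be seen, and the 95% intervals reached a median of 0.46 to either side on the log2 scale.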
